A study of Mus musculus with 30 samples.

Results

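Lung organoid co-cultures that had received TGF-β were separated into an epithelial and a fibroblast fraction, and the RNA of the fractions was compared within the same treatment. The comparison used 7 of the 30 libraries of the series, 3 of the epithelial fraction (mice 2, 3 and 4) and 4 of the fibroblast fraction (mice 1 to 4). They were chosen by their labels alone, as the TGF-β libraries of CD45-/CD31-/Epcam+ cells and of the cell line CCL206. In each culture, 300000 Epcam+ cells of wild-type mouse lung, depleted of CD45+ and CD31+ cells, shared Matrigel with the same number of CCL206 cells. TGF-β was present at 2 ng/ml for 72 hours, after which the matrix was dissolved and the cells were parted with Epcam microbeads. CCL206 is an established mouse lung fibroblast line whose division had been blocked before seeding, so the fibroblast libraries of all mice came from 1 line and a mouse number there names the culture. Mice 2, 3 and 4 gave both fractions and were compared as pairs, while the fibroblast library of mouse 1 had no epithelial partner here and is shown by its levels only. The vehicle libraries, 4 epithelial and 3 fibroblast, came from cultures of the same kind with no TGF-β and serve below to test which differences between the fractions TGF-β altered.

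TGF-β is secreted bound to a latency peptide and is stored in the matrix through latent TGF-β binding proteins. Integrins on epithelial cells can free it. The active ligand joins a type II and a type I receptor, SMAD2 and SMAD3 are phosphorylated, and with SMAD4 they act on matrix, contractile and feedback genes. In the lung, fibroblasts answer with collagen and smooth muscle actin, and alveolar epithelial cells with a loss of epithelial genes and a gain of matrix and basal-like genes. The cells of both fractions had been in 1 gel with the same ligand, and the comparison shows which genes of this pathway and of its targets each of them held.

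Levels are given as CPM, the share of each gene in the reads of a library scaled by edgeR's TMM factors and expressed per 1000000 reads, in the order of mice 2, 3 and 4 for epithelial libraries and of mice 1 to 4 for fibroblast libraries, and group values are means ± SD (n = 3 and n = 4). Differences are log2 fold changes of epithelial over fibroblast in the 3 pairs, so that a positive value is higher in the epithelial fraction. The adjusted p is that of edgeR's quasi-likelihood test after Benjamini-Hochberg correction over all 18590 genes tested. Members of a list that are named for the size of their difference are those with the largest differences among the called members reported here with at least 10 CPM in the higher fraction. CPM is not corrected for gene length, so levels are compared between libraries and not between genes.

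The fractions carried the markers of their labels. Epcam, the surface adhesion protein used for the separation, stood at 369, 402 and 397 CPM in epithelial libraries and at 3.62, 8.89, 3.13 and 10.1 CPM in fibroblast libraries (log2 fold change 5.81, SE 0.23, adjusted p = 6.9e-19). Cdh1, which encodes E-cadherin of adherens junctions, stood at 838, 876 and 884 CPM and 8.31, 21.99, 7.55 and 21.3 CPM (log2 fold change 5.78, SE 0.22, adjusted p = 5.4e-19). Every epithelial library lay far above every fibroblast library for both genes. Col1a1, the α1 chain of type I collagen, was higher on the fibroblast side at 4037, 3686, 5129 and 4249 CPM, against 1135, 1093 and 1060.1 CPM in epithelial libraries (log2 fold change -1.98, SE 0.13, adjusted p = 5.9e-14). Acta2, the smooth muscle actin of myofibroblasts, showed 496, 399.7, 602 and 350.1 CPM in fibroblast and 239, 297 and 199 CPM in epithelial libraries (log2 fold change -0.86, SE 0.13, adjusted p = 3.0e-06). The fractions did not overlap for Col1a1 or Acta2 either, but both fibroblast genes were measured at considerable levels in all 3 epithelial libraries.

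**Figure D1:**
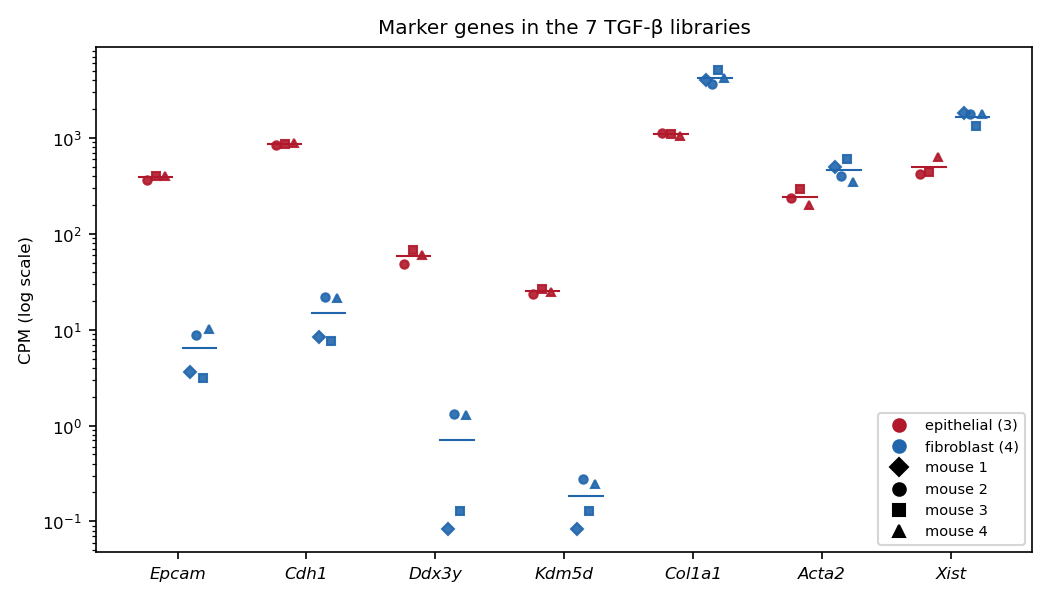
Level of the 4 markers, 2 Y-linked genes (Ddx3y and Kdm5d) and Xist in the 7 TGF-β libraries. The vertical axis is CPM on a log scale, each point is 1 library (red epithelial, blue fibroblast, shapes for mice 1 to 4 as in the key) and the bars are group means. Epcam and Cdh1 are separated by 5.81 and 5.78 on the log2 scale, Col1a1 and Acta2 by -1.98 and -0.86 in the other direction.

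Reference genes typical of 1 fraction, and sex-linked genes, were therefore followed in both before any other gene. The fibroblast list includes matrix and contractile genes, and expression of these by the epithelial cells themselves was not tested. For each library, the median level of the reference genes of the other fraction with at least 50 CPM in the partner library was expressed as a percentage of the partner, in CPM of total counts. Epithelial TGF-β libraries held fibroblast reference genes at 31.6, 31.0 and 37.1% of their partners. Xist, the non-coding RNA of the inactive X chromosome, was high in the fibroblast line, at 1811, 1771, 1327 and 1766 CPM, and low in the epithelial libraries, at 420.3, 445 and 636 CPM (log2 fold change -1.71, SE 0.14, adjusted p = 6.2e-12). In the same percentages Xist stood at 24.8, 35.8 and 38.2% of the partner, within 7 percentage points of the median of the list in each mouse. In vehicle cultures the epithelial libraries of mice 1 to 4 held 9.98, 5.18, 4.35 and 5.13% for the reference genes, and 15.9, 5.04, 3.13 and 5.56% for Xist. By both measures each epithelial TGF-β library lay above every epithelial vehicle library. The fibroblast side went the other way: epithelial reference genes stood at 1.37, 2.91, 1.04 and 3.56% of the partner in the TGF-β libraries of mice 1 to 4, against 17.4, 17.9 and 31.4% in the vehicle libraries of mice 1, 3 and 4. The Y-linked genes Ddx3y, Eif2s3y, Kdm5d and Uty, present on the epithelial side, taken as their sum, stood at 0.618, 2.48, 0.504 and 1.46% in the fibroblast TGF-β libraries and 19.7, 24.1 and 18.9% in the vehicle ones. Here, by both measures, every TGF-β library lay below every vehicle library. Ddx3y, a helicase gene, for instance stood at 48.8, 67.6 and 59.9 CPM in epithelial and 0.0823, 1.31, 0.128 and 1.298 CPM in fibroblast TGF-β libraries.

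**Figure D2:**
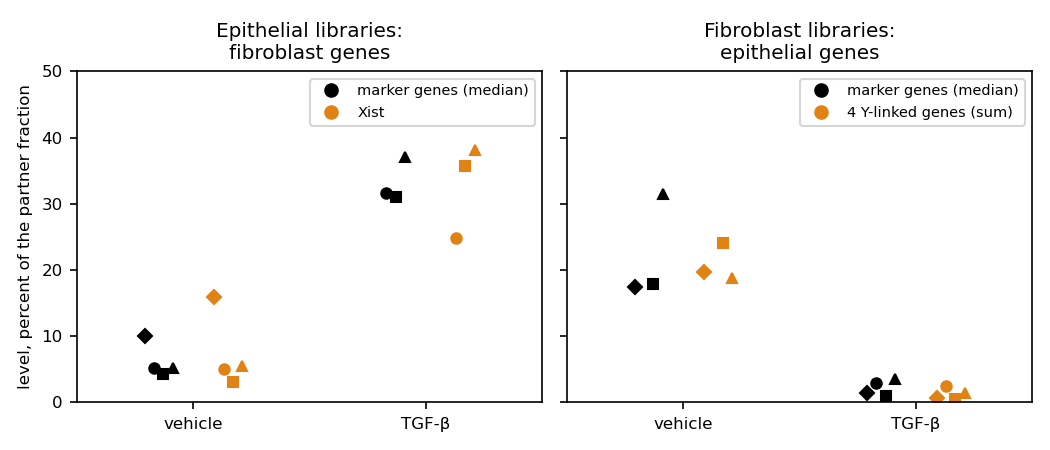
Level of the other fraction's genes in vehicle and TGF-β libraries, as a percentage of the partner library (vertical axis). Diamonds, circles, squares and triangles are mice 1, 2, 3 and 4, and the 2 libraries without a partner (fibroblast TGF-β mouse 1, epithelial vehicle mouse 2) were set against the mean of the partner group. Black points are the median of the reference genes, orange points Xist in epithelial libraries (left) and the sum of 4 Y-linked genes in fibroblast libraries (right). Under TGF-β the epithelial libraries lie between 31.0 and 37.1% for reference genes and the fibroblast libraries between 1.04 and 3.56%.

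Single genes spread around these medians. The epithelial reference gene Abca3, a lipid transporter, stood at 51.9, 49.8, 55.5 and 69.0% of the partner in the fibroblast libraries and was the highest there in each, while the other reference genes over 10% numbered between 0 and 3 in a library. Fibroblast reference genes ran from 16.1 to 96.7% in the epithelial libraries. For genes that were higher in fibroblasts, the ratio of the epithelial to the fibroblast library of the same mouse is therefore set beside that of Xist, which was 23.7, 33.6 and 36.0% in the TMM-scaled CPM used from here on. In bulk RNA, fewer cells of a type and less RNA per cell cannot be told apart. Markers of other cell types were low. Of the 25 genes of the immune list, between 10 and 14 were at 0 in a library. The lymphocyte genes Cd3e, Cd3g, Cd4 and Nkg7 were at 0 in all 7, and Ptprc (CD45) stayed at or below 0.494 CPM. Some macrophage genes of the list were measured. Cd68 stood at 5.08 to 5.61 CPM in epithelial and 7.16 to 13.9 CPM in fibroblast libraries. Mrc1 reached 3.88 CPM and Csf1r 2.12 CPM in epithelial libraries, while Adgre1, Marco and Siglecf stayed at or below 0.741 CPM in all. The summed level of that list was 22.3 to 31.8 CPM in fibroblast and 128 to 164 CPM in epithelial libraries, most of it from Cd14, a lipopolysaccharide co-receptor, at 149, 141 and 115 CPM against 8.23, 7.45, 11.1 and 10.4 CPM. The summed endothelial list reached 11.4 to 19.0 CPM and 14.2 to 16.5 CPM, with Emcn, Erg, Robo4 and Sox17 at 0 throughout. Its highest members were Esam, at 7.64 to 9.54 CPM in epithelial libraries, and Plvap, at 3.04 to 6.78 CPM in fibroblast libraries. The part of the immune and endothelial lists in the results was not tested. The libraries held between 8275413 (epithelial, mouse 4) and 18826266 (epithelial, mouse 2) counted reads.

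Of 18590 genes tested, 8451 (45.5%) differed between the fractions, 4536 (24.4%) higher in the epithelial and 3915 (21.1%) higher in the fibroblast fraction. Counts of list members below are to be set against these shares. More than 2-fold differences numbered 2814 (15.1%) and 2069 (11.1%). For 9903 genes (53.3%) the 3 epithelial and 4 fibroblast libraries did not overlap. The sizes of the differences were unequal. Over 8-fold, 1642 genes were higher in epithelial and 123 in fibroblast libraries, and among genes with at least 10 CPM in the higher fraction the log2 fold change reached 8.39 on one side and -2.96 on the other. Of the 2995 genes called higher in fibroblasts with at least 10 CPM there, the median ratio of epithelial to fibroblast level was 54.5% and the 5th percentile 23.9%, and 59.8% of all genes called there had a ratio above that of Xist in 3 of 3 mice. With the fibroblast level subtracted from the epithelial libraries, 6013 genes passed, 2587 on the epithelial and 3426 on the fibroblast side, and 2240 and 2914 by more than 2-fold. Folds of the fibroblast side are therefore not set against folds of the epithelial side. Some calls of genes named below were small enough to be lost when 1 mouse was left out: those of Ahnak, Dst and Jag1 without mouse 3, of Furin, Id2, Runx1, Ski and Smad7 without mouse 3 or without mouse 4, of Zfyve9 without mouse 4, and of Fgf10 and Tgfbi without mouse 2. With both levels subtracted as given by Xist and the Y-linked genes (added to the alternatives once the data had been seen), 4584 genes passed, and Col1a1, Tgfb1, Ltbp2, Acvrl1, Id1, Grem1, Cxcl12, Hspg2, Itga5, Itgb5, Phlda3, Smtn and Fosl1 were among 30 named genes no longer called. All 30 kept their direction with a larger log2 fold change than before (Smtn -3.43 against -1.17, for example). For genes higher in fibroblasts, the subtraction takes proportionally more from the epithelial level. Their direction and larger size therefore follow from the subtraction and are no evidence for the calls. The biological coefficient of variation of the fit went from 15.7 to 46.1%.

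Among genes with at least 100 CPM in the higher fraction, the largest differences on the epithelial side were those of Nrk, a kinase gene (log2 fold change 8.04, SE 0.26, adjusted p = 7.2e-20), St8sia6 and Galnt3 of glycan synthesis (7.14 and 6.41), the laminin chain Lama3 (6.17), the interleukin-18 receptor chain Il18r1 (6.15), the retinal dehydrogenase Aldh1a1 (6.14), clusterin (Clu, 6.12), Cd24a (6.05), Mal2 (6.04) and the epithelial transcription factor Ehf (5.99). Nrk stood at 125, 231 and 226 CPM in epithelial and 0.411, 0.414, 0.32 and 1.48 CPM in fibroblast libraries. Clu, an extracellular chaperone used as a mark of transitional alveolar cells, reached 15610.1, 18165 and 16915 CPM against 157, 274, 110.2 and 459.6 CPM. On the fibroblast side the largest differences under the same rule were Mgp, the matrix Gla protein that inhibits calcification (log2 fold change -2.69, SE 0.14, adjusted p = 1.5e-16), Dmp1 (-2.48), gelatinase A (Mmp2, -2.46), the elastin crosslinker Loxl1 (-2.42), the secretory kinase Fam20c (-2.40), Dnm1 (-2.38), osteopontin (Spp1, -2.36), Speg (-2.35), the pericyte proteoglycan Cspg4 (-2.26) and Id3 (-2.24). Spp1 stood at 20346, 20438, 22259.7 and 28413 CPM in fibroblast and 4028, 4156 and 5681 CPM in epithelial libraries, and all epithelial libraries were below all fibroblast libraries. The ratios of these fibroblast genes fell between 12.6 and 28.6%, against those of Xist given above.

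The machinery that makes, stores and frees TGF-β was divided between the fractions. Of its 16 genes tested, 3 were higher in epithelial and 11 in fibroblast libraries (median log2 fold change -1.04, against 0.04 for all genes). Of all genes, 24.4% and 21.1% were called on those sides. Among the ligands, Tgfb1 was higher in fibroblasts at 132, 119.9, 142 and 183 CPM against 44.0, 44.2 and 53.6 CPM (log2 fold change -1.63, SE 0.15, adjusted p = 9.2e-11), and Tgfb3 likewise (-0.83, adjusted p = 2.4e-05). Tgfb2 was the exception and stood at 39.8, 51.7 and 64.6 CPM in epithelial against 6.67, 5.79, 6.20 and 7.11 CPM in fibroblast libraries (log2 fold change 3.01, SE 0.18, adjusted p = 7.6e-15). Each of the 3 ligands had non-overlapping fractions. The latent TGF-β binding proteins were all higher in fibroblasts, with Ltbp1 at -0.84, Ltbp2 at -1.93, Ltbp3 at -1.24 and Ltbp4 at -2.07, as were fibrillin-1 (Fbn1, -1.91), on which they assemble, the latency anchor Lrrc32 (-2.34) and decorin (Dcn, -2.04), which binds the ligand.

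Activators lay on both sides. Itgb6, the β6 chain of the epithelial integrin that frees latent TGF-β, stood at 195, 215 and 239 CPM in epithelial and 2.14, 6.27, 1.15 and 4.51 CPM in fibroblast libraries (log2 fold change 5.87, SE 0.27, adjusted p = 8.1e-18). Its partner chain Itgav differed by 0.24 (adjusted p = 0.18) and was measured at 366, 429 and 399.7 CPM and 424, 410.5, 342 and 272 CPM, so the β6 chain passed the test and the α chain did not. Itgb5 was higher in fibroblasts (-1.53, adjusted p = 6.4e-11), and Itgb8 did not pass the test (0.39, adjusted p = 0.52). Thrombospondin-1 (Thbs1), which can also free TGF-β from its latency peptide, was higher in the epithelial fraction at 2158, 2958 and 3501 CPM against 787, 994, 993 and 982 CPM (log2 fold change 1.51, SE 0.14, adjusted p = 7.8e-11). The convertase Furin, which cleaves the precursor, was higher in fibroblasts by a small margin (-0.42, adjusted p = 0.020), and its fractions overlapped.

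Of the 20 receptor and SMAD genes tested, 3 were higher in epithelial and 6 in fibroblast libraries, and 11 did not pass the test, so that the share called was near the 45.5% of all genes (median -0.12). The type I receptor Tgfbr1 was higher in the epithelial fraction, at 134, 169 and 149.97 CPM against 37.2, 38.2, 28.8 and 26.5 CPM (log2 fold change 2.28, SE 0.16, adjusted p = 4.6e-13), as was the activin type I receptor Acvr1b (1.33, adjusted p = 1.5e-08). The type II receptor Tgfbr2 was alike in both, at 208, 221 and 206 CPM and 187, 197, 197 and 170.4 CPM (log2 fold change 0.17, 95% interval -0.11 to 0.45). The co-receptors betaglycan (Tgfbr3, -1.76) and Eng (-2.04) and the type I receptor Acvrl1 (-1.59) were higher in fibroblasts. Eng stood at no more than 3.04 CPM in any library. The calls of Eng and Acvrl1 were lost with both levels subtracted as given by Xist and the Y-linked genes. For the signal transducers the intervals were narrow around 0, with Smad2 at -0.08 to 0.52, Smad3 at -0.44 to 0.13 and Smad4 at -0.19 to 0.40. Smad1 (-0.26), Smad5 (-0.16), Smad6 (-0.07), Smurf1 (0.31), Smurf2 (-0.28), Skil (-0.09) and Bambi (0.52) did not pass the test. Among the inhibitors, Smad7 (-0.58, adjusted p = 0.0052), Ski (-0.37, adjusted p = 0.027) and Tgif1 (-0.70, adjusted p = 8.9e-05) were higher in fibroblasts, and the adaptor Zfyve9 in epithelial libraries (0.62, adjusted p = 0.0024).

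**Figure D3:**
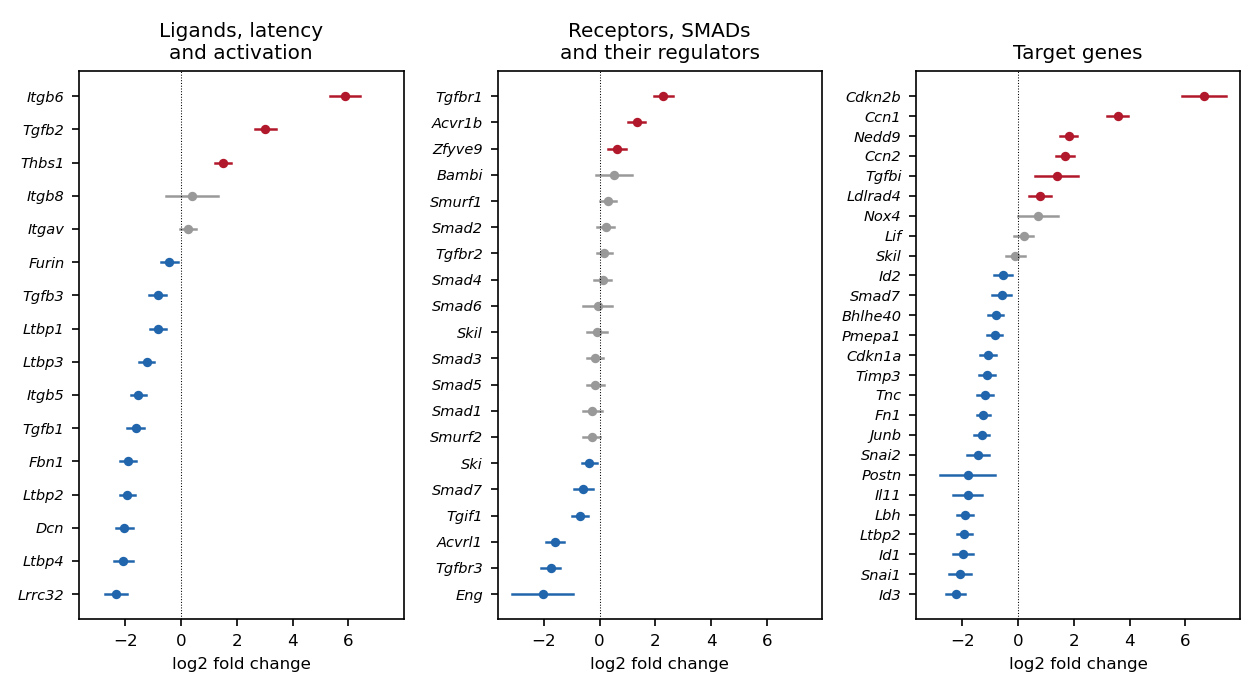
Log2 fold change of epithelial over fibroblast TGF-β libraries for the genes of the 3 TGF-β lists that are reported here, with 95% intervals. The horizontal axis is the log2 fold change, red and blue points passed the test (higher in epithelial or in fibroblast libraries) and grey points did not. Itgb6 (5.87), Cdkn2b (6.66) and Ccn1 (3.57) lie far to the epithelial side, Lrrc32 (-2.34) and Id3 (-2.24) to the fibroblast side.

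Known TGF-β target genes lay on both sides. Of 27 tested, 18 were higher in fibroblast and 6 in epithelial libraries (median -0.83), against 21.1% and 24.4% of all genes. Fibronectin (Fn1) was higher in fibroblasts at 18726, 18677, 20221 and 18257 CPM against 7119, 8092 and 8916 CPM (-1.25, adjusted p = 1.6e-10). The membrane protein Pmepa1, a feedback inhibitor, showed -0.83, tenascin C (Tnc) -1.19, Timp3 -1.11, Junb -1.31, Bhlhe40 -0.80, Cdkn1a -1.08 and Lbh -1.90. The Id genes, targets of BMP signalling that TGF-β lowers in many epithelia, were higher in fibroblasts, with Id1 at -1.96, Id2 at -0.54 and Id3 at -2.24. So were the repressors Snai1 (-2.07) and Snai2 (-1.44), the cytokine Il11 (-1.80) and periostin (Postn, -1.80, at no more than 4.28 CPM in any library).

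The 6 targets on the epithelial side included 2 matricellular genes. Ccn1 stood at 597, 991 and 1539 CPM against 53.5, 80.9, 58.1 and 117 CPM (log2 fold change 3.57, SE 0.18, adjusted p = 5.1e-17), and Ccn2, the connective tissue growth factor, at 357, 446 and 369 CPM against 109, 159, 139 and 77.7 CPM (log2 fold change 1.70, SE 0.16, adjusted p = 2.4e-10). Cdkn2b, the p15 inhibitor of the cell cycle through which TGF-β halts epithelial cells, was at 21.5, 32.5 and 21.98 CPM in epithelial libraries and at 0.165, 0.414, 0 and 0.309 CPM in fibroblasts (log2 fold change 6.66, SE 0.38, adjusted p = 1.7e-15). The scaffold Nedd9 (1.82, adjusted p = 2.2e-11), Ldlrad4 (0.78, adjusted p = 0.0012) and Tgfbi (1.39, adjusted p = 0.0032) completed the group, Tgfbi with overlapping fractions. Nox4 (0.71, adjusted p = 0.11), Lif (0.20, adjusted p = 0.36) and Skil (-0.09, adjusted p = 0.70) did not pass the test. For 22 of the 27 targets the fractions did not overlap, against 53.3% of all genes, and Smad7 and Tgfbi were the called targets whose fractions did.

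Collagen genes were more often higher in the fibroblast than in the epithelial fraction. Of 26 collagen genes tested, 16 were higher in fibroblasts and 6 in epithelial libraries (median -1.16), against 21.1% and 24.4% of all genes. Col3a1 stood at 1267, 1296, 1448 and 1139 CPM in fibroblast and 291, 278 and 286 CPM in epithelial libraries (log2 fold change -2.18, SE 0.14, adjusted p = 1.3e-14), and Col16a1 had a similar difference (-2.11, adjusted p = 5.0e-14). The type IV chains of basement membranes fell into groups. Col4a3 was at 40.2, 34.5 and 31.7 CPM against 0.247, 2.76, 0.768 and 1.54 CPM (log2 fold change 4.45, SE 0.25, adjusted p = 1.5e-15) and Col4a4 at 4.73, while Col4a1 and Col4a2, chosen after their values were seen, were higher in fibroblasts (-0.99 and -1.21). The α3 and α4 chains are the ones made by alveolar type 1 cells in the lung. For 7 of the 16 collagens called on the fibroblast side, the ratio to the partner was above that of Xist in 3 of 3 mice, against 59.8% of all genes called there. Collagen processing followed, with 15 of 18 genes higher in fibroblasts and 1 in epithelial libraries (median -1.07). Loxl1, which crosslinks elastin and collagen, showed 153, 162, 237 and 221 CPM against 40.8, 35.8 and 37.4 CPM, and the collagen chaperone Fkbp10 -1.76.

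Of 24 elastic fibre genes and matrix glycoproteins, 17 were higher in fibroblasts and 3 in epithelial libraries (median -1.63), against 21.1% and 24.4% of all genes. Of the 17, 4 lay above the Xist ratio in 3 of 3 mice, against 59.8% of all genes called there. Besides Spp1, biglycan (Bgn) was prominent at 4015, 4262, 5194 and 5477 CPM in fibroblast and 1033, 1006 and 1132 CPM in epithelial libraries (log2 fold change -2.23, SE 0.13, adjusted p = 1.6e-15). The fibulin Efemp1 ran against the list at 32.6, 31.0 and 23.5 CPM in epithelial and 0.741, 1.79, 0.192 and 0.618 CPM in fibroblast libraries (log2 fold change 5.15, SE 0.32, adjusted p = 1.2e-14). Matrix proteases and inhibitors divided in the same way, 17 of 24 higher in fibroblasts and 3 in epithelial libraries, against the same shares of all genes. Mmp2 (-2.46) and Adamts4 (-1.97) were on the fibroblast side, and the membrane protease Mmp15 (3.13) and Adamts5 (1.26) on the epithelial side.

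**Figure D4:**
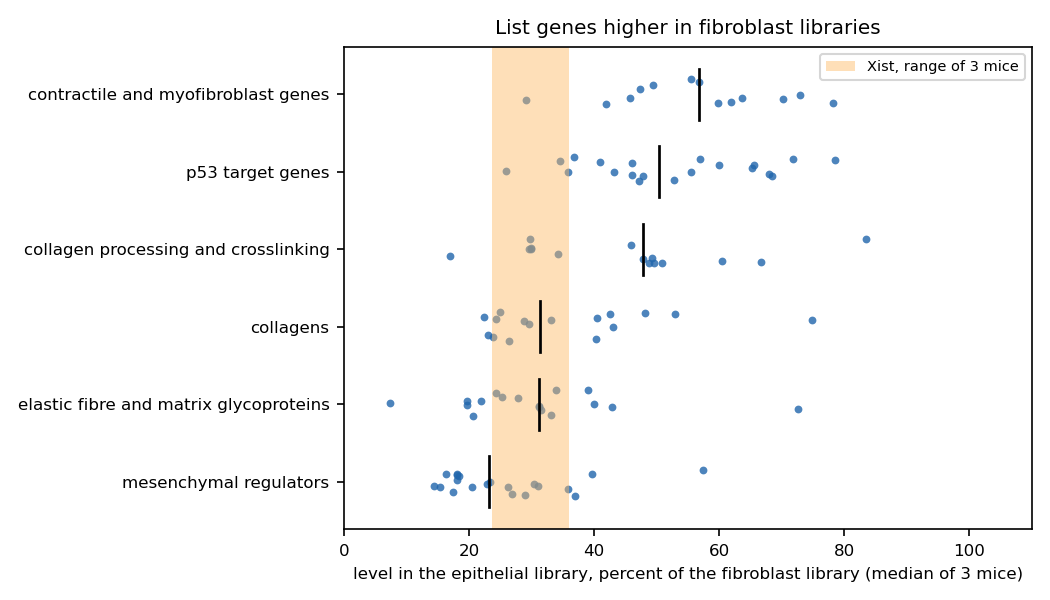
Epithelial level as a percentage of the fibroblast level of the same mouse for genes called higher in fibroblast TGF-β libraries, by list. The horizontal axis is linear, each point is 1 gene's median over the 3 mice, black bars are list medians, and the band is the range of Xist over the mice (23.7, 33.6 and 36.0%). In 3 of 3 mice, 11 of 13 contractile genes and 3 of 20 mesenchymal regulators exceed Xist.

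Basement membrane genes lay on both sides. Of 14 genes, 6 were higher in epithelial and 7 in fibroblast libraries. The laminin chains Lama3, at 103, 120.2 and 92.4 CPM against 1.15, 2.55, 0.576 and 1.36 CPM (log2 fold change 6.17, SE 0.26, adjusted p = 1.8e-18), and Lamb3, chosen after its values were seen (4.84), both of the laminin beneath epithelia that anchors hemidesmosomes, were on the epithelial side. Nidogen-1 (Nid1, -1.94) and perlecan (Hspg2, -1.90), which link the laminin and collagen networks, were on the fibroblast side. Lamc1, the γ chain common to most laminins, was alike, at 256 ± 3.21 CPM against 257 ± 15.3 CPM (95% interval of the log2 fold change -0.31 to 0.24). Integrins were evenly split, with 7 of 18 higher on each side. The hemidesmosome chain Itgb4 stood at 139.7, 141 and 119 CPM against 2.80, 4.34, 5.18 and 6.12 CPM (log2 fold change 4.67, SE 0.19, adjusted p = 6.8e-19), beside Itgb6. Itga8 (-2.03, adjusted p = 8.2e-10) and the fibronectin receptor chain Itga5 (-1.68, adjusted p = 5.5e-12) were higher in fibroblasts, and Itgb1, the chain shared by many integrins, did not pass the test (0.27, adjusted p = 0.11).

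Contractile genes were separated by small margins. Of 22 tested, 13 were higher in fibroblasts and 1 in epithelial libraries (median -0.54). For 11 of the 13 the ratio to the partner exceeded that of Xist in 3 of 3 mice, against 59.8% of all genes called on that side. Acta2 reached 59.8, 49.3 and 56.8% of the partner. Tpm2 (log2 fold change -1.15, SE 0.14, adjusted p = 6.1e-08) and smoothelin (Smtn, log2 fold change -1.17, SE 0.16, adjusted p = 2.8e-07) had the largest differences, and Tpm1, a tropomyosin, was higher in the epithelial fraction at 1275, 1479 and 1436 CPM against 779.9, 769, 863 and 637 CPM (log2 fold change 0.89, SE 0.13, adjusted p = 1.1e-06). The actin-binding proteins Actn1, Vcl and Cnn2 did not pass the test, with 95% intervals of -0.23 to 0.29, -0.36 to 0.20 and -0.31 to 0.25. Among members chosen after their values were seen, Tagln stood at 117, 89.1, 127 and 75.1 CPM in fibroblast and 55.1, 72.1 and 53.5 CPM in epithelial libraries (-0.67, adjusted p = 0.00036) and Myl9, the regulatory myosin light chain, at 69.2, 65.6, 92.8 and 60.6 CPM and 37.8, 37.8 and 27.7 CPM (-1.07, adjusted p = 9.7e-07). Without mouse 3 the list had 8 genes called on the fibroblast side instead of 13.

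The CArG box, CC followed by 6 letters of A or T and GG, is bound by serum response factor and is the best known element of smooth muscle promoters. It was searched on both strands in the RefSeq promoter windows of build GRCm38.p6, which run from 250 bases before to 50 bases after a start site. With at most 1 departure in the A/T run, a match was held by 4 of 22 windows of 19 contractile genes (18.2%) and by 9.98% of all 32851 windows. The share was 21.1% (4 of 19 windows) for cell junction genes and 13% (3 of 23) for collagens. With no departure it was 13.6% (3 windows) for contractile genes, 0 for cell junction genes and collagens, and 1.63% for all windows. The windows of Acta2 (chr19:34255324-34255623, minus strand) and Myl9 (chr2:156775214-156775513, plus strand) are shown because each holds 2 matches with at most 1 departure, in capitals. They begin 84 and 34 bases before the start site in Acta2 and 161 and 99 bases before it in Myl9. Only the match at 161 bases in Myl9 (CCTAATAAGG) has no departure, and both matches in Acta2 have 1.
Acta2: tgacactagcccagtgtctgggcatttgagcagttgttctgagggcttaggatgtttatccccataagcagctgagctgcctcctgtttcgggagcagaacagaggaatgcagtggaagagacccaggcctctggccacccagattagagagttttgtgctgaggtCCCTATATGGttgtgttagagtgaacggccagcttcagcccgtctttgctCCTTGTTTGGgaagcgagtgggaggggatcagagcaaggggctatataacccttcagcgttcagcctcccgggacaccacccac
Myl9: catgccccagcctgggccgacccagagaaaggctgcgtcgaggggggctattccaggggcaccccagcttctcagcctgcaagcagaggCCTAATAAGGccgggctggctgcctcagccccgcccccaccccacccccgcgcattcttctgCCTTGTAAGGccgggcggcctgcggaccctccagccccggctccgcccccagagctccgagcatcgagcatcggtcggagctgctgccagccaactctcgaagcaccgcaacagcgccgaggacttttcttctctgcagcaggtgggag
A match describes letters, and binding was not measured.

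Junction genes lay on the epithelial side. Of 27 tested, 24 were higher in the epithelial and 2 in the fibroblast fraction (median 4.97). The desmosomal cadherins Dsc2 (12.9, 19.999 and 12.0 CPM against 0.0823, 0.0689, 0.064 and 0.247 CPM, log2 fold change 6.75, SE 0.43, adjusted p = 1.5e-14) and Dsg2 (6.08, adjusted p = 2.9e-19) had the largest differences. Cdh2, encoding N-cadherin, was higher in fibroblasts at 122, 122, 122 and 101 CPM against 38.9, 39.3 and 39.3 CPM (-1.55, adjusted p = 4.1e-10), as was Cdh11 (-1.70, adjusted p = 2.8e-11). Keratins gave 14 of 15 genes on the epithelial side and none on the fibroblast side (median 5.60), of which Krt19 stood at 1459, 1536 and 1305 CPM against 22.2, 24.5, 11.8 and 40.3 CPM (log2 fold change 5.95, SE 0.24, adjusted p = 7.9e-19). Krt13 did not pass the test (0.63, adjusted p = 0.29). Of 25 epithelial regulators, 24 were higher in epithelial libraries (median 5.19), among them Sox2 (log2 fold change 6.18, SE 0.26, adjusted p = 2.1e-18), which marks airway progenitors. Sox9 was the exception and stood at 70.9, 85.9, 113 and 127 CPM in fibroblast against 22.4, 23.2 and 30.0 CPM in epithelial libraries (-2.10, adjusted p = 9.8e-13).

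ZEB and SNAI repressors bind E-box sequences in epithelial promoters. The letters CAGGTG or their complement CACCTG were found in 12 of 19 windows of 14 junction genes (63.2%), in 5 of 9 keratin windows (55.6%), in 7 of 18 windows of epithelial regulators (38.9%) and in 20.2% of all windows. Windows of a gene can overlap, so they are not independent. Epcam is shown as the marker used for the separation (chr17:87635729-87636028, plus strand), with its 2 matches in capitals, beginning 187 and 19 bases before the start site.
Epcam: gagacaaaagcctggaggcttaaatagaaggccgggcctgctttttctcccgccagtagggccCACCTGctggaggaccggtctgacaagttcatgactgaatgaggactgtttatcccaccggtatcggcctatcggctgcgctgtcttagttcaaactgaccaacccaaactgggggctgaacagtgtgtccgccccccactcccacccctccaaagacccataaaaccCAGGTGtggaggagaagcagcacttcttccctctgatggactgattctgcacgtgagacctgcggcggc
Mesenchymal regulators, which include these repressors, were higher in fibroblasts for 20 of 21 genes (median -2.07). Of these, 3 lay above the Xist ratio in 3 of 3 mice, against the 59.8% of all genes called there. The heart and limb factor Tbx5, also a regulator of lung mesenchyme, stood at 18.3, 15.3, 19.0 and 22.7 CPM in fibroblast and 2.35, 2.46 and 4.00 CPM in epithelial libraries (log2 fold change -2.72, SE 0.24, adjusted p = 3.9e-11), and Twist2 at 14.1, 22.2, 25.1 and 23.9 CPM and 3.93, 4.52 and 4.35 CPM (-2.48, adjusted p = 2.9e-11). Zeb1 (-1.70) and Zeb2 (-1.83), chosen after their values were seen, had ratios of 26.8, 28.9 and 37.5% and 22.8, 26.3 and 37.8%. Runx1 alone was higher in the epithelial fraction (0.42, adjusted p = 0.016).

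**Figure D5:**
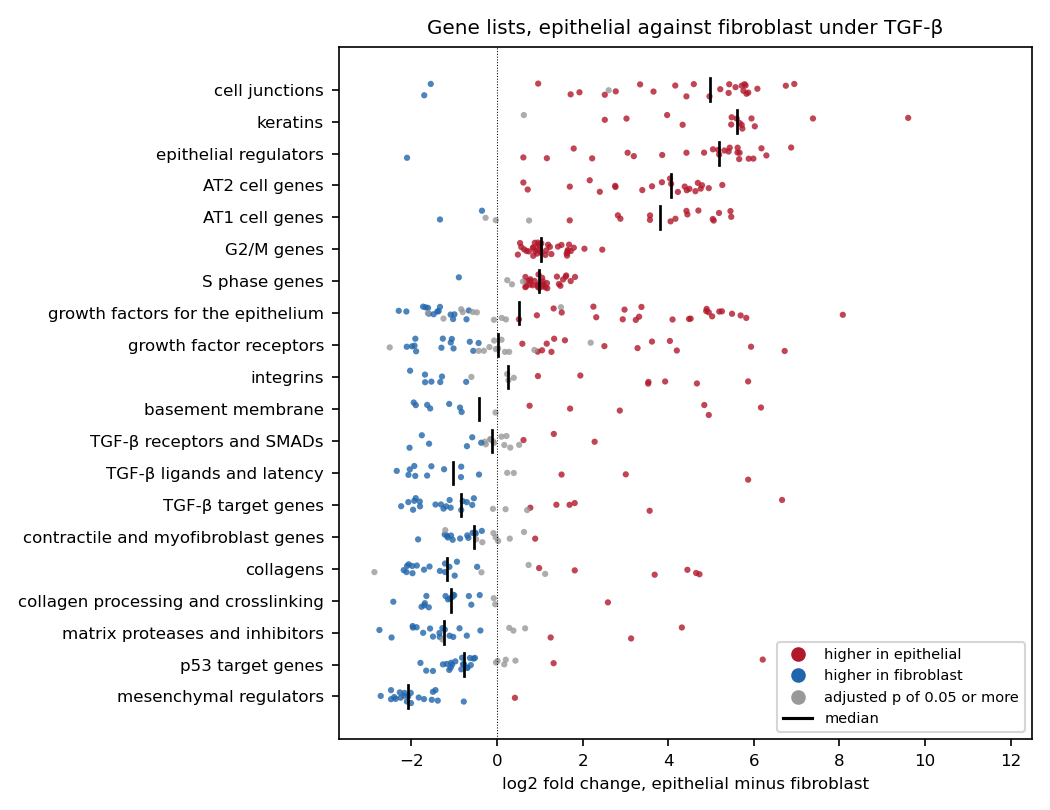
Log2 fold change of epithelial over fibroblast TGF-β libraries for each tested gene of 20 lists. The horizontal axis is the log2 fold change, each point is 1 gene (red or blue where it passed the test, grey where it did not), and the bar is the list's median. Among the 20 lists plotted, medians run from -2.07 for mesenchymal regulators to 5.60 for keratins, and of the lists left out the airway secretory genes have 5.73.

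The epithelial fraction held genes of all lung epithelial types listed. Of 22 genes of alveolar type 2 (AT2) cells, which make surfactant, all 22 were higher in epithelial libraries (median 4.06), with Il33 at 77.6, 69.7 and 65.2 CPM against 0.905, 3.72, 1.47 and 1.92 CPM (log2 fold change 4.95, SE 0.22, adjusted p = 3.6e-18) and Slc39a8 at 4.79. Sftpc, chosen after its values were seen, stood at 2534, 1563 and 957 CPM in epithelial and 37.7, 275, 84.4 and 138 CPM in fibroblast libraries (log2 fold change 3.40, SE 0.18, adjusted p = 4.5e-16), and so varied more than 2-fold among the epithelial libraries. Of 20 genes of alveolar type 1 (AT1) cells, the flat cells of gas exchange, 15 were higher in epithelial and 2 in fibroblast libraries (median 3.82). The sodium channel chain Scnn1g (5.47, adjusted p = 1.6e-15) and Clic5 (5.19, adjusted p = 2.3e-14) led them, and Vegfa (562, 592, 635 and 551 CPM in fibroblast, 243, 224 and 239 CPM in epithelial libraries) and Ahnak (-0.35, adjusted p = 0.027) were higher in fibroblasts. Of 19 genes of the transitional state between AT2 and AT1 cells, 12 were higher in epithelial libraries and 3 in fibroblasts. Clu and Krt19 led them, Fosl1 (-1.23, adjusted p = 1.1e-07) and Cdkn1a (-1.08, adjusted p = 8.7e-08) were on the fibroblast side, and Hbegf, Lgals3, Nupr1 and Plaur did not pass the test.

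Airway genes were also on the epithelial side. Of 18 secretory genes, 17 were higher in epithelial libraries and none in fibroblasts. Bpifa1, a secreted airway defence protein, stood at 64.4, 37.3 and 19.3 CPM against 0.329, 0.552, 0.064 and 0.247 CPM (log2 fold change 7.10, SE 0.31, adjusted p = 3.9e-18), and Bpifb1 at 17.8, 10.8 and 4.82 CPM against 0.247, 0, 0.064 and 0.185 CPM. Of 18 ciliated cell genes, 14 were higher in epithelial libraries. Foxj1, the regulator of motile cilia, was at 20.6, 19.9 and 11.5 CPM against 1.65, 1.86, 1.73 and 1.92 CPM (log2 fold change 3.20, SE 0.27, adjusted p = 1.4e-11) and Tppp3 at 2.21. Of 14 basal cell genes, 11 were on the epithelial side, Icam1 among them (4.95, adjusted p = 6.2e-19), and 1, Dst (-0.41, adjusted p = 0.017), on the fibroblast side. The epithelial libraries differed from each other in this list. Krt5, the keratin of basal cells, stood at 59.4, 28.0 and 1.76 CPM in mice 2, 3 and 4 and at 0.165, 0.552, 0.64 and 0.0618 CPM in fibroblasts (log2 fold change 6.02, SE 0.33, adjusted p = 7.0e-16), and its lowest epithelial library still lay above every fibroblast library. Krt14 and Trp63, chosen after their values were seen, were measured at 9.18, 5.56 and 0.823 CPM and at 3.88, 2.86 and 0.47 CPM, and mouse 4 was the lowest of the epithelial libraries for both. Krt17, also chosen so, had no read in the paired fibroblast libraries and 13.01, 7.62 and 0.353 CPM in epithelial ones, with mouse 4 again the lowest.

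The growth factors and receptors through which the fractions of an organoid can act on each other were divided as follows. Of 49 growth factor genes, 24 were higher in epithelial and 15 in fibroblast libraries (median 0.51), and of 39 receptors 14 and 13 (median 0.03). Hgf was a fibroblast gene at 87.1, 87.8, 48.7 and 64.4 CPM against 12.0, 11.6 and 24.6 CPM (log2 fold change -2.12, SE 0.20, adjusted p = 2.2e-10), and its receptor Met was higher on epithelial cells at 126, 140.4 and 154 CPM against 49.2, 50.3, 47.0 and 42.3 CPM (log2 fold change 1.59, SE 0.15, adjusted p = 2.9e-10). The same held for Fgf7 (-0.99, adjusted p = 5.1e-06) and Fgf10 (-1.02, adjusted p = 0.0098) and their receptor Fgfr2 (1.34, adjusted p = 8.6e-09), with Fgf10 at 5.68, 7.31, 7.23 and 4.20 CPM in fibroblasts. Grem1, an antagonist of BMP ligands, was at 2831, 2626, 2332 and 2372 CPM in fibroblast and 631, 681 and 936 CPM in epithelial libraries (-1.73, adjusted p = 5.2e-12), and the BMP receptor Bmpr1b was on the epithelial side (6.72, adjusted p = 6.2e-17).

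Other ligands and receptors were divided in different ways, and signalling between the fractions was not tested. Pdgfb stood at 75.4, 109 and 87.2 CPM in epithelial against 6.25, 7.86, 6.65 and 13.2 CPM in fibroblast libraries (log2 fold change 3.32, SE 0.20, adjusted p = 4.9e-15), and its receptor Pdgfrb was a fibroblast gene (-1.93, adjusted p = 4.9e-12). Pdgfa (-1.39, adjusted p = 8.5e-09) and Pdgfra (-1.98, adjusted p = 8.1e-13) were both higher in fibroblasts. Shh, the hedgehog ligand of lung epithelium, was at 33.8, 31.8 and 23.5 CPM against 0.658, 1.86, 0.576 and 0.68 CPM (log2 fold change 4.89, SE 0.28, adjusted p = 1.1e-15), whereas its receptor Ptch1 did not pass the test (0.11, adjusted p = 0.63). Il33 was epithelial and its receptor Il1rl1 higher in fibroblasts (-1.26, adjusted p = 3.9e-08). The EGF receptor ligands Areg (2.98, adjusted p = 3.7e-16) and Tgfa (5.03, adjusted p = 3.9e-15) were higher in epithelial libraries, Ereg (-0.71, adjusted p = 0.0010) and the receptor Egfr (-1.05, adjusted p = 6.0e-07) in fibroblasts, and Hbegf did not pass the test. Nrg1 (0.93, adjusted p = 6.4e-06) and its receptor Erbb3 (4.20, adjusted p = 6.1e-18) were both higher in epithelial cells, as were the Notch ligand Jag1 (0.51, adjusted p = 0.0063) and Notch1 (1.27, adjusted p = 4.8e-06). Wnt5a (-1.59, adjusted p = 3.1e-10) and Ror2 (-2.11, adjusted p = 1.2e-10), ligand and receptor of non-canonical Wnt signalling, were both fibroblast genes. Kitl and Notch2 did not pass the test. Pthlh, the parathyroid hormone-related peptide, was at 22.03, 17.9 and 19.4 CPM in epithelial libraries against 0.494, 0, 0 and 0.185 CPM in fibroblast libraries, and Fgf1 at 35.3, 33.5 and 26.7 CPM against 0.905, 0.827, 0.448 and 0.556 CPM (log2 fold change 5.69, SE 0.27, adjusted p = 2.1e-17).

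Chemokines and cytokines showed 9 of 22 genes higher in epithelial and 7 in fibroblast libraries. Cxcl5, which draws neutrophils, was at 49.2, 67.6 and 80.6 CPM against 0.658, 0.689, 0.448 and 0.618 CPM (log2 fold change 6.79, SE 0.25, adjusted p = 2.4e-19), and the lung chemokine Cxcl15 at 4.69. Cxcl12, a stromal chemokine, stood at 933, 840.1, 946 and 827 CPM in fibroblast and 249, 275 and 283 CPM in epithelial libraries (-1.70, adjusted p = 3.4e-12), and Il11 was on that side too. The median of the list was 0.62.

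Cell cycle genes were higher in the epithelial fraction with little exception. Of 35 S phase genes, 31 were higher in epithelial and 1 in fibroblast libraries (median 0.97), and of 35 G2/M genes all 35 were higher in epithelial libraries (median 1.04). The fibroblasts had been treated to stop division before seeding. Cdc6, which licenses replication origins, stood at 59.7, 61.3 and 54.1 CPM against 17.7, 16.9, 20.4 and 12.8 CPM (log2 fold change 1.82, SE 0.16, adjusted p = 7.7e-11), and Ect2, an activator of cytokinesis, at 138, 164 and 164 CPM against 32.2, 34.2, 29.9 and 21.6 CPM (log2 fold change 2.46, SE 0.17, adjusted p = 1.4e-13). The exception among S phase genes was E2f1, at 66.8, 70.5, 110.3 and 98.7 CPM in fibroblast and 54.9, 43.4 and 50.4 CPM in epithelial libraries (-0.89, adjusted p = 4.4e-05). Genes induced by p53 lay on the other side, with 20 of 27 higher in fibroblasts and 2 in epithelial libraries (median -0.77), and 15 of the 20 were above the Xist ratio, against 59.8% of all genes called on that side. Phlda3 (394, 349, 483 and 470.2 CPM in fibroblast, 129, 122 and 122 CPM in epithelial libraries, -1.79, adjusted p = 7.3e-12) and Eda2r (-1.65, adjusted p = 8.7e-10) had the largest differences, and Perp, a desmosomal p53 target, was epithelial (6.21, adjusted p = 8.9e-17). Of 30 genes of cholesterol and fatty acid synthesis, 16 were higher in epithelial and 3 in fibroblast libraries (median 0.43). Scd1, which desaturates fatty acids, was at 1351, 1232 and 787 CPM against 86.9, 198, 103 and 115 CPM (log2 fold change 3.04, SE 0.16, adjusted p = 1.6e-16), Cyp51 of sterol synthesis at 2.41, and the desaturases Fads1 (-0.94) and Fads2 (-0.96) were higher in fibroblasts.

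Not every gene separated the fractions. For 6574 of the tested genes (35.4%) the 95% interval of the log2 fold change lay within 1 on either side of 0, and for 1931 within 0.5. With both levels subtracted as given by the reference genes, 2884 genes lay within 1. Fasn, the fatty acid synthase, for example stood at 750.1 ± 145 CPM against 818 ± 121 CPM (interval -0.48 to 0.07), and Lgals3, a galectin, at 364 ± 43.1 CPM against 321 ± 80.6 CPM (interval -0.20 to 0.42). The intervals of the type II receptor Tgfbr2, the transducer Smad3 and the feedback gene Skil were within 0.5. This places the mean difference over the 3 pairs, as counted, well below 2-fold. Single pairs of Skil varied more, with an epithelial level of 57.1, 100.9 and 142.8% of the fibroblast level in mice 2, 3 and 4. The level of fibroblast genes in epithelial libraries was not subtracted for these intervals.

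To ask which differences between the fractions TGF-β had altered, the same difference in vehicle cultures was subtracted in a fit of 14 libraries, giving an interaction on the log2 scale that is positive where the balance moved towards the epithelial fraction. Means from here on use CPM scaled over these 14 libraries. Of 18558 genes tested, 4264 (23%) passed, 3372 (18.2%) above and 892 (4.81%) below 0, and the median over all genes was 0.25. Scaling by library size alone moved that median by 0.16 and the share of calls above 0 from 79.1 to 90.2%. The levels of the other fraction's genes moved with treatment, from 4.35 to 9.98% in vehicle to 31.0 to 37.1% in epithelial libraries, and from 17.4 to 31.4% to 1.04 to 3.56% in fibroblast libraries, and the first shift raises the interaction of fibroblast genes and the second that of epithelial genes. For Xist, epithelial libraries held 87.5 ± 39.1 CPM in vehicle and 491 ± 119 CPM under TGF-β, and fibroblast libraries held 1339 ± 414 CPM and 1675 ± 220.1 CPM (interaction 2.24, SE 0.38, adjusted p = 0.00034). Epcam (3.20, adjusted p = 3.7e-06), Cdh1 (3.47, adjusted p = 2.4e-06), Col1a1 (2.11, adjusted p = 2.4e-05) and Acta2 (2.38, adjusted p = 1.5e-06) also passed. With both levels subtracted as given by the reference genes (also added later), 1989 genes passed, 923 above and 1066 below 0, and without mouse 3 the count was 2472.

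Among genes with an interaction over 1, the smallest adjusted p above 0 belonged to complement C3, for which epithelial libraries held 286 ± 25.5 CPM in vehicle and 152 ± 10.03 CPM under TGF-β, and fibroblast libraries held 1059 ± 91.2 CPM and 24.7 ± 3.26 CPM (interaction 4.50, SE 0.18, adjusted p = 2.9e-10). In C3 the fibroblast fraction was the higher one in vehicle and the lower one under TGF-β. Cxcl5 (5.45, adjusted p = 1.8e-08) and Fgf1 (4.24, adjusted p = 5.0e-08) showed the same order of means on the fibroblast side, Cxcl5 from 43.2 ± 22.6 CPM to 0.605 ± 0.105 CPM with 87.1 ± 32.6 CPM and 64.6 ± 15.7 CPM in epithelial libraries. Tnfrsf11b, which encodes the decoy receptor osteoprotegerin, and the sialyltransferase St6gal1 differed more on the epithelial side, Tnfrsf11b from 2.00 ± 0.219 CPM to 62.8 ± 9.20 CPM and St6gal1 from 7.39 ± 0.891 CPM to 76.5 ± 8.88 CPM (4.54, adjusted p = 2.4e-08 and 3.11, adjusted p = 5.0e-08). In the TGF-β libraries both were higher in the epithelial than in the fibroblast fraction in mean level. Below 0 the smallest adjusted p belonged to Sema7a, a membrane semaphorin known as a TGF-β target, for which epithelial libraries held 19.0 ± 3.10 CPM in vehicle and 56.8 ± 3.69 CPM under TGF-β, and fibroblast libraries held 5.10 ± 1.11 CPM and 178 ± 9.31 CPM (interaction -3.60, SE 0.21, adjusted p = 3.7e-08). Rnf149 (-1.79, adjusted p = 1.9e-06), the aminopeptidase Anpep (-2.56, adjusted p = 4.1e-06), Inava (-1.70, adjusted p = 7.8e-06) and Gsto1 (-1.34, adjusted p = 1.4e-05) followed. Anpep was the higher in epithelial libraries in vehicle and the higher in fibroblasts under TGF-β (13.1 ± 2.75 CPM and 7.39 ± 2.62 CPM, then 16.5 ± 3.92 CPM and 59.2 ± 11.9 CPM).

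Of the 3 TGF-β lists, 10 of 16 ligand and latency genes moved above 0 and 1 below, 7 of 20 receptor and SMAD genes above and 1 below, and 16 of 27 targets above and 1 below, against 18.2% of all genes above and 4.81% below. With both levels subtracted as given by the reference genes, the counts above and below were 1 and 2 for ligand and latency genes, 1 and 1 for receptor and SMAD genes and 3 and 2 for targets. Cdkn2b had the largest value (interaction 4.98, SE 0.51, adjusted p = 3.4e-06): epithelial libraries held 9.34 ± 1.42 CPM in vehicle and 24.8 ± 5.88 CPM under TGF-β, and fibroblast libraries held 2.90 ± 0.588 CPM and 0.223 ± 0.181 CPM. The means of Ccn1 went from 386 ± 200.1 CPM to 1023 ± 469.7 CPM in epithelial and from 194 ± 102 CPM to 77.7 ± 29.6 CPM in fibroblast libraries (2.40, adjusted p = 3.7e-06). Those of Itgb6 went from 59.7 ± 10.6 CPM to 212 ± 22.4 CPM and from 13.2 ± 4.20 CPM to 3.54 ± 2.33 CPM (3.66, adjusted p = 5.7e-06). Nox4, a source of hydrogen peroxide, was 0.193 ± 0.103 CPM and 5.32 ± 2.82 CPM in epithelial libraries and 1.94 ± 0.309 CPM and 3.05 ± 0.55 CPM in fibroblasts (4.07, adjusted p = 0.00019), so the epithelial mean was below the fibroblast mean in vehicle and above it under TGF-β. The fraction difference of Tgfbr1 rose (1.19, adjusted p = 0.0013), while those of Tgfbr2 (-0.57, adjusted p = 0.014, lost without mouse 1, 2 or 3), Tgfb3 (-0.92, adjusted p = 0.00096) and Id1 (-1.47, adjusted p = 0.0026) fell. Id1 stood at 84.5 ± 23.1 CPM in epithelial vehicle and 15.4 ± 5.09 CPM in epithelial TGF-β libraries, against 108 ± 25.7 CPM and 55.7 ± 9.76 CPM in fibroblasts. For Fbn1, Id3, Lbh, Lrrc32, Ltbp4, Snai1 and Dcn the interaction was above 0 as counted and below 0 once the fibroblast level in epithelial libraries was subtracted, so no direction is given for them. With both levels subtracted by reference genes, 21 of the 44 genes named from the interaction were no longer past the threshold and 5 reversed. By Xist and the Y-linked genes, 25 were no longer past it and 4 reversed. Itgb6, Tgfbr1, Fn1, Skil and Timp3 were among the genes whose calls were lost. By Xist and the Y-linked genes, those of Rnf149 and Id1 were lost as well.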

How the data were processed

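The authors trimmed reads with Trimmomatic 0.30 and deposited raw counts per Ensembl gene, whole numbers that were not normalized. The paper names GRCm38 and the labels GRCm39, so no gene coordinates are given, and promoter windows are RefSeq's (GRCm38.p6). The counter is not given in the sources used here, so genes that share reads with others are uncertain. No molecular identifiers are described, so the counts are of reads and not of molecules. The intervals of log2 fold changes come from the quasi-likelihood fit and include the spread between libraries. Library totals ran from 8275413 to 18826266 reads.

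Genes whose raw counts averaged 1 or more entered edgeR 4.0.16 (R 4.3.3): TMM, quasi-likelihood test, mouse as a block, Benjamini-Hochberg adjustment, threshold 0.05. The pairing comes from the labels, which give both fractions of a culture 1 mouse number. Deviations of same-numbered libraries correlated at -0.12, -0.03 and 0.09. Those of differently numbered libraries correlated at -0.12 to 0.14, so same-numbered libraries were not more alike. With no replicate block 9402 genes passed in all 7 libraries against 8451. The fibroblast cells are 1 line, so p-values there measure the spread between cultures. Libraries of a group differed beyond sampling noise (chi-square per degree of freedom 6.51 to 30.6). Fibroblast mice 1 and 2 (6.97) and mice 3 and 4 (13.4) were nearer to each other than across (22.2 to 30.6). The sample titles of fibroblast mice 3 and 4 and of epithelial mouse 2 carry a suffix, R, that the sources used here do not explain and that differs within every pair.

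The libraries and the 31 gene lists (664 genes, 662 matched, 626 tested) were chosen with earlier results of these data known. Named genes were the markers and sex-linked genes, the 10 largest differences per direction with at least 100 CPM and no overlap, up to 2 called members of a list per direction with at least 10 CPM, every tested gene of the 3 TGF-β lists, ligand and receptor pairs, list members that did not pass, and the 5 smallest adjusted p per direction in the interaction (over 1 in size, at least 10 CPM in a group). Some genes that the rule names are not reported here. Others are said to be chosen after their values were seen. Alternatives were DESeq2 1.42.0, limma 3.58.1, other scalings and filters, other uses of the mouse number, all 30 libraries, leaving out each mouse, and subtraction of the other fraction's level.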

Additional observations from a re-analysis of the deposited data

Results flagged for a closer look

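In groups of 4 libraries, a value far from the others was looked for in 35 groups, of which chance flags about 1 in 20. Xist in fibroblast TGF-β libraries had mouse 3 apart from the others at 1327 CPM, below the other fibroblast libraries and above all epithelial ones. Nrk had mouse 4 apart at 1.48 CPM, the highest of the fibroblast libraries and far below the epithelial ones.

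The test of the difference between TGF-β and vehicle cultures passed for 4264 genes. Above 0 it marked C3 (4.50), Cxcl5 (5.45), Tnfrsf11b (4.54), St6gal1 (3.11) and Fgf1 (4.24), together with the markers Epcam (3.20), Cdh1 (3.47), Col1a1 (2.11) and Acta2 (2.38) and with Xist (2.24). Below 0 it marked Sema7a (-3.60), Rnf149 (-1.79), Anpep (-2.56), Inava (-1.70) and Gsto1 (-1.34). The level of the other fraction's genes differed between vehicle and TGF-β libraries in both fractions, and the counts after its subtraction are given with the dependence on the processing.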

How the results depend on the processing

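Of 3021 values of the 159 genes named from the comparison of fractions under 19 other settings, 2937 kept their direction and their side of the threshold, 84 were no longer past it and 0 reversed. The number of genes passing was 5950 to 9084 without 1 mouse, and 4584 with both levels subtracted by Xist and Y-linked genes. The contractile list fell from 13 to 8 fibroblast genes without mouse 3, and also with that subtraction. Of 748 values of 44 genes named from the interaction, 646 kept direction and side, 86 were no longer past the threshold and 16 reversed. The interaction count was 2472 to 3973 without 1 mouse, 1989 with both levels subtracted by reference genes and 1179 by Xist and Y-linked genes, and library-size scaling gave 4153 genes above and 450 below 0. Both subtractions were chosen after seeing the data. With the fibroblast level alone subtracted, the reversed values were -0.0871 for Dcn, -8.67 for Fbn1, -8.39 for Id3, -10.58 for Lbh, -0.19 for Lrrc32, -8.55 for Ltbp4 and -1.74 for Snai1. With both subtracted by reference genes they were -7.89 for Fbn1, -8.05 for Id3, -10.27 for Lbh, -8.20 for Ltbp4 and -1.36 for Snai1, and by Xist and Y-linked genes -1.97 for Dcn, -5.95 for Fbn1, -0.65 for Id3 and -1.45 for Lbh. Their sizes depend on the prior count where few reads were left. Genes alike in both fractions within 1 fell from 6574 to 2884 after subtraction of both levels by reference genes. Within 0.5 they numbered 1931 with no subtraction. The level of fibroblast genes in epithelial libraries was 24.8% in mouse 2 and 35.8% in mouse 3 by Xist, and 26.7% in mouse 3 and 31.9% in mouse 4 by reference genes of at least 200 CPM. That of epithelial genes in the fibroblast library of mouse 4 was 1.46% by Y-linked genes. With no replicate block the interaction count was 4546, where the call of Tgfbi was lost. Between fractions 9092 genes passed with no replicate block in the 6 paired libraries, with 0 named calls lost, and 9402 in all 7, where that of Smad7 was lost. With the title suffix R as a covariate beside the block, 9731 genes passed between fractions and 5000 in the interaction, no call of a named gene was lost, and receptor and SMAD genes higher in epithelial libraries went from 3 to 5. The fit of 6 libraries without the block and both with the suffix beside it were also chosen after seeing the data. The limits are few libraries, 1 fibroblast line, no fibroblast vehicle library from mouse 2 and no epithelial partner for mouse 1 under TGF-β among those analysed.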
